A study of Homo sapiens with 7 samples.

Results

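The eIF3a contacts of 6 cytoskeletal genes were described: the α-tubulin genes TUBA1A, TUBA1B and TUBA1C, the β-tubulin gene TUBB, and the cytoplasmic actin genes ACTB and ACTG1. Each gene was represented by a window of hg19 on its own strand, and any listed interval that overlapped the window by at least 1 nt was assigned to it. The windows were taken as given and not checked against an hg19 annotation. The 6 windows took up 10 of the 4013 entries of the list, and 5 of the 6 genes had entries. TUBB had 0.

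The study mapped RNA contacts of eIF3a, which belongs to the multi-subunit initiation factor eIF3 that brings mRNA and the small ribosomal subunit together, in HEK293T, an embryonic kidney line of human origin with the SV40 large T antigen. For the 2 replicates of PAR-iCLIP, HEK293T cells took up 4-thiouridine over 8 h, were irradiated at 354 nm, which crosslinks protein to the labelled bases, and were lysed for immunoprecipitation with an antibody to eIF3a. The other 5 samples of the series, miCLIP libraries for m6A in HEK293T and HepG2, were not analysed here. The eIF3a data were 1 list in which replicates were not distinguished, so the values below have no replicate error and no difference between genes was tested.

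Tubulin and actin are the subunits of the microtubule and microfilament networks. An α-tubulin and a β-tubulin form the dimer that polymerises into microtubules, and free tubulin dimers feed back on tubulin mRNAs by triggering their decay while they are being translated. β-actin and γ-actin, the products of ACTB and ACTG1, are nearly identical proteins found in almost every cell type, and transcription of their genes responds to the factor SRF. Within each family the coding sequences are so alike that a short read can match more than 1 gene. The counts given here may therefore include reads that also match a paralog, though which clusters lie in coding sequence was not determined.

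Each entry of the list carried a score, the highest read coverage in its cluster, and a coverage profile from which the 25-nt reads of the cluster were recovered. Entries with the same profile at the same place were counted as 1 cluster. The 10 entries formed 9 clusters with 272 reads. The listed reads per gene were, from most to fewest, TUBA1C (72 reads in 3 clusters, 95% Poisson interval 56.3 to 90.7), ACTG1 (68 reads in 2 clusters, 52.8 to 86.2), ACTB (48 reads in 2 clusters, 35.4 to 63.6), TUBA1B (47 reads in 1 cluster, 34.5 to 62.5) and TUBA1A (37 reads in 1 cluster, 26.1 to 51.0). These intervals treat reads as independent Poisson counts. Every start held at most 1 read, so the counts were capped by the number of positions, and TUBA1A and TUBA1C had reads in common. The intervals are therefore a rough guide to counting error only. Each gene's interval overlapped that of the next in the order. The intervals of TUBA1C and ACTG1 did not overlap that of TUBA1A, a difference that was not tested. The place of TUBA1C at the top rested on reads that were also listed at TUBA1A. With the 35 common reads counted once, and left to TUBA1A, TUBA1C kept 37 reads. Left to TUBA1C, they leave TUBA1A with 2 reads, so the count of TUBA1A and its interval rest almost wholly on common reads. Sequencing depth is unknown, and these totals are not per length of transcript, so the order is not one of eIF3a contact per mRNA.

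The clusters also differed in the share of their possible start positions that held a read. This share is per length of cluster, not of transcript. The reads themselves set that length, and the positions at both ends hold a read by construction, which raises the share in short clusters. All positions were filled in the first TUBA1C cluster (100%), followed by TUBA1B (55.3%), the second TUBA1C cluster (51.4%) and the upstream ACTG1 cluster (46.4%). The downstream ACTG1 cluster (35.9%) and the upstream ACTB cluster (32.1%) stood in the middle. The downstream ACTB cluster (31 of 129 positions), the third TUBA1C cluster (23.8%) and the TUBA1A cluster (21.5%) were the sparsest, close to the median of 19.4% over the primary chromosomes.

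The paralogs differ in sequence around their transcription starts, and the 30 bases from -40 to -11 relative to the start are shown for the 4 genes that had clusters and an entry in the RefSeq promoter table (GRCh38.p14). ACTB had no match in that table, and for TUBA1C the most downstream of 3 listed starts is shown. Capitals mark TATA, a match to the letters of the TATA box, which reads the same on both strands.
TUBA1A, chr12:49189091-49189120, minus strand: gaccgagttgTATAtagggagccgcatccg
TUBA1B, chr12:49131406-49131435, minus strand: gcagccgctacttaagaggctccagcgccg
TUBA1C, chr12:49265042-49265071, plus strand: gaccgggTATAtaaggcccttcggggccgg
ACTG1, chr17:81512810-81512839, minus strand: cgcttccgcttaaataacggcgggggaggc

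TATA stood in this stretch in TUBA1A and in the shown start of TUBA1C, 2 of the 8 starts listed for 5 of the genes, and in 6.73% of all 35116 promoters of the table. The other 6 starts, those of TUBA1B, ACTG1 and TUBB and the upstream pair of TUBA1C, did not hold these letters. Over the 300-base promoter windows, which run from 250 bases before the start to 50 after it, 0 of 24 pairs of windows of different genes had a stretch of 25 bases, the length of a read, in common. These pairs include α-tubulin against β-tubulin and tubulin against actin, where little likeness is to be looked for. Without an ACTB entry, the actin paralogs were not compared. The bodies of the genes were not compared in this way. The label 4-thiouridine enters RNA in place of uridine, written T in these sequences. T filled 17 of the first 50 transcribed positions at the shown start of TUBA1C, 16 and 9 at its other starts, 13 in TUBA1B, 12 in ACTG1, 10 in TUBA1A, and 14 and 9 at the starts of TUBB, against a median of 10 over all promoters. The sequences were found by gene symbol, and no position was carried from hg19 to GRCh38 or back.

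**Figure D1:**
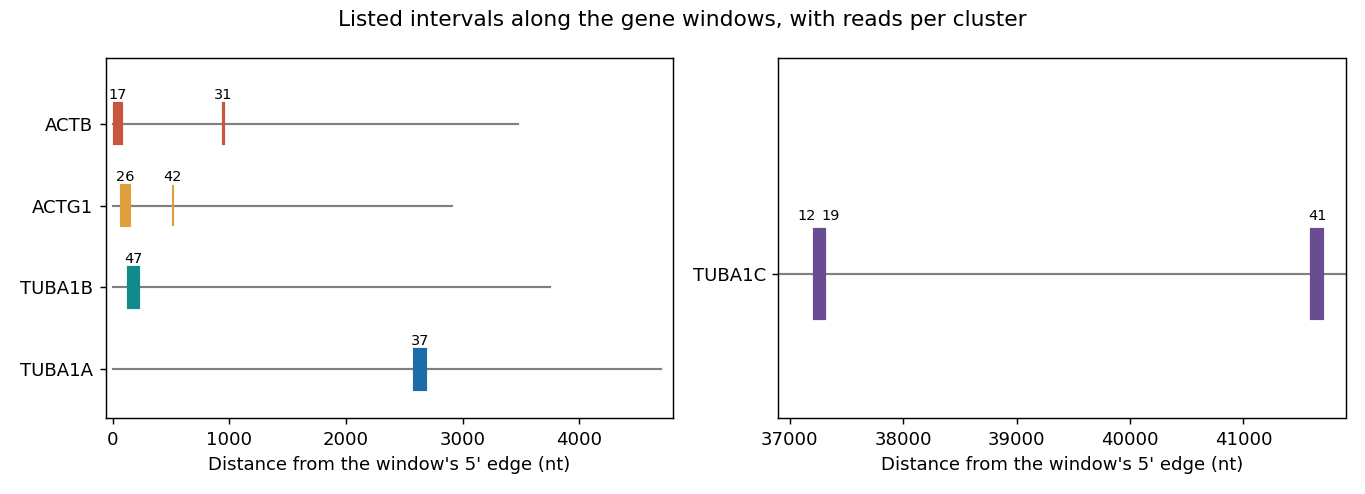
Listed intervals (boxes) along the hg19 windows of 5 genes (grey lines), as distance in nt from the window's 5' edge, with the number of reads per cluster above each box and the narrowest boxes widened by their outline; TUBA1C is drawn apart because its clusters begin 37210 nt into a long window. ACTB, ACTG1 and TUBA1B have clusters within 129 nt of the edge, and both actins have a further cluster listed over 6 nt only.

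TUBA1B encodes an α-tubulin made in most tissues, and it had the cluster with the most reads and the highest score among these genes. The cluster was listed at chr12:49525084-49525181 on the minus strand, 129 nt from the 5' edge of the window. It held 47 reads over 109 nt and scored 19, a score that 48 of the 3566 clusters on the primary chromosomes (1.35%) reached or passed. Its reads were packed: 47 of 85 possible start positions were occupied, and 13 of them formed an unbroken run of neighbouring positions. Its highest coverage was reached at position 35 from the 5' end of the cluster and again at positions 45 to 47. No other locus of the list shared a stretch of its read starts, by the comparison described for TUBA1A below.

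TUBA1C, another widely expressed α-tubulin gene, had 3 clusters in 2 places. The first pair lay side by side on the plus strand, at chr12:49658860-49658894 and chr12:49658899-49658958, with only 4 nt between the listed intervals. The first of them, 36 nt long, held 12 reads with a score of 12, and its 12 possible start positions were all occupied by 1 read each. It was the only one of the 3566 primary clusters with 12 or more start positions to be filled completely. In 66 primary clusters (1.85%) every position was occupied, the others being shorter. Its neighbour held 19 reads over 61 nt with a score of 15 and filled 19 of 37 positions. The pair began 37210 nt into the TUBA1C window. In GRCh38 the RefSeq table put its most downstream TUBA1C start 37156 nt downstream of the first, a distance within that build. The edge of the hg19 window is rounded to 10 nt and was not matched to that first start. The distances therefore have no known common origin, and the pair was not placed against a start.

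The third TUBA1C cluster and the single cluster of TUBA1A were nearly the same set of reads. TUBA1A encodes the α-tubulin best known from developing neurons. Its cluster was listed at chr12:49580515-49580616 on the minus strand, 2584 nt from the 5' edge of its window, and the third TUBA1C cluster at chr12:49663248-49663349 on the plus strand, 4289 nt beyond the second. Both were 196 nt long, both were listed over 102 nt and both scored 14, with 37 reads in TUBA1A and 41 in TUBA1C. Read in the direction of transcription, 35 starts coincided with no shift. From the 5' end the starts were identical through position 138, a stretch with 33 common reads, and after the last difference 2 more reads were common.

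The reads that told the paralogs apart all crossed 1 short stretch. Only 8 reads were found at 1 locus and not the other, 2 in TUBA1A and 6 in TUBA1C, and they started between positions 139 and 159. All 8 covered positions 159 to 161 of the cluster, and 0 of the 35 common reads did. The common reads left just 9 positions of the 196 uncovered, 153 to 161. TUBA1C took 75.0% of the 8 private reads (exact 95% binomial interval 34.9% to 96.8%), an interval that holds equal shares. It treats the reads as independent although each start held at most 1 read, so it is a rough guide and not a test between the genes. The 35 common reads cannot be divided between the genes from this list, and whether they also match loci outside the list, such as other α-tubulin genes, was not tested.

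**Figure D2:**
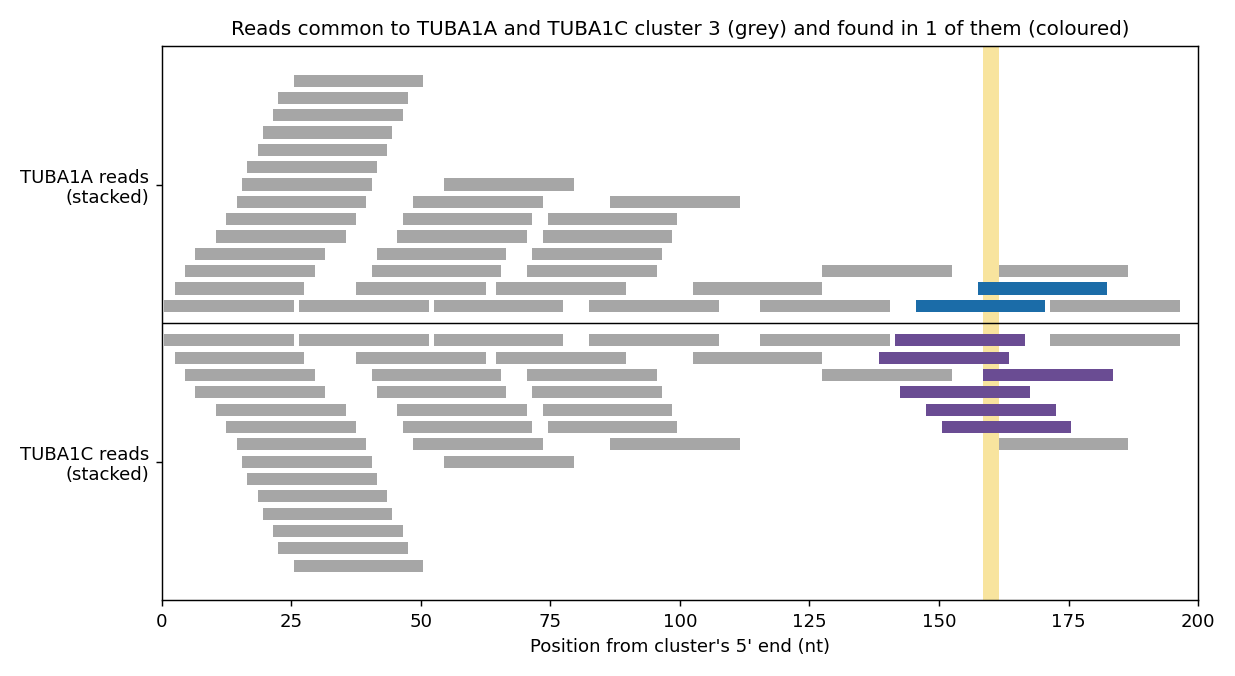
Reads of the TUBA1A cluster (upper stack) and of the third TUBA1C cluster (lower stack, mirrored), each bar a 25-nt read at its position in nt from the cluster's 5' end; height is only stacking order. Grey bars mark the 35 reads with the same start in both, coloured bars the 2 and 6 found in 1 of them, and the shaded band positions 159 to 161, which the coloured bars all cover and the grey bars do not.

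Reads shared between loci were looked for over the whole list, by comparing every 40-nt stretch that held 10 to 30 read starts. Of 660 primary clusters with such a stretch, 38 (5.76%) shared it with another locus. Among the tubulin and actin clusters 7 could be searched and 2 shared a stretch, the TUBA1A cluster and the third TUBA1C cluster, each with the other and with no further locus. The first pair of TUBA1C clusters was too short for this search. In 36 comparisons of the member clusters with each other at every shift, the 35 common starts of TUBA1A and TUBA1C were followed by 21, for TUBA1B against the downstream ACTG1 cluster. Clusters as dense as these coincide at many starts once the best shift is chosen, so such numbers alone do not show shared reads.

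ACTB and ACTG1 had the same arrangement, an upstream cluster near the window's 5' edge and a downstream cluster with more reads. In ACTB the upstream cluster was listed at chr7:5570158-5570232 on the minus strand, 8 nt from the edge, with 17 reads over 77 nt and a score of 11. In ACTG1 it was listed at chr17:79479751-79479829, also on the minus strand and 71 nt from the edge, with 26 reads over 80 nt and a score of 16. A shorter entry of the same ACTG1 cluster began at 79479760. The ACTG1 cluster was the denser, with 26 of 56 start positions occupied against 17 of 53 in ACTB, and the Poisson intervals of their reads overlapped (17.0 to 38.1 and 9.90 to 27.2).

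The downstream clusters of both actin genes were listed over 6 nt, although their profiles were far longer. The ACTB entry was chr7:5569289-5569294, and its cluster spanned 153 nt with 31 reads and a score of 11. The ACTG1 entry was chr17:79479381-79479386, and its cluster spanned 141 nt with 42 reads and a score of 13. In 90 of the 3566 primary clusters (2.52%) the listed interval was 6 nt or less, and in 14 it was exactly 6 nt, these 2 included. The listed gap between upstream and downstream clusters was 863 nt in ACTB and 364 nt in ACTG1. As background, the start codon of both genes lies near the beginning of the second exon, after an intron that interrupts the 5' untranslated region. No annotation of hg19 was used, so the 6 listed nt were not placed against exons or start codons, and where the rest of each cluster lay is not known.

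**Figure D3:**
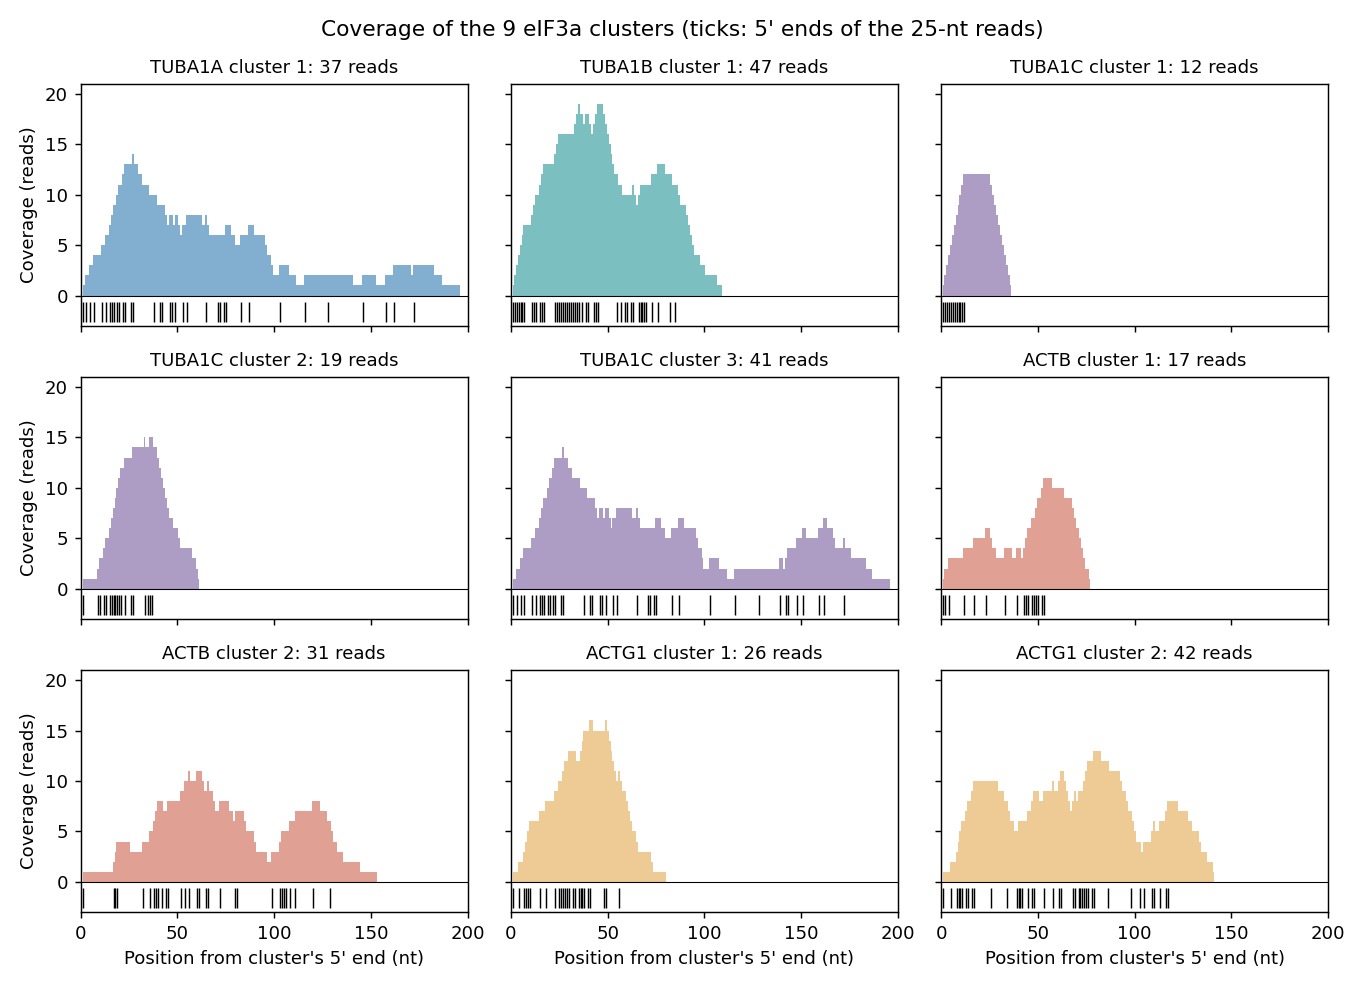
Coverage in reads of the 9 clusters, read in the direction of transcription, against the position in nt from the cluster's 5' end; black ticks below 0 are the 5' ends of the 25-nt reads, 1 read each. The profiles of the TUBA1A cluster and the third TUBA1C cluster match until position 138, while the downstream actin clusters have several summits and TUBA1C cluster 1 is a single filled block.

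No shared stretch of read starts like that of TUBA1A and TUBA1C was found between the actin paralogs. At the best of all shifts, 15 of the 31 starts of the downstream ACTB cluster coincided with the 42 of the downstream ACTG1 cluster, fewer than the 21 reached by the unrelated pair of TUBA1B and ACTG1. No 40-nt stretch of either was found at another locus of the list. That search needs identical starts over the whole stretch, so it cannot show that no reads were shared over shorter runs. Coverage of the downstream clusters was highest at position 56 and at positions 60 to 62 in ACTB, and at 79 to 82 in ACTG1. Because their placement within the genes is unknown, the profiles could not be laid over each other by sequence.

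The 9 clusters all had more reads and higher scores than most of the list. The TUBA1A cluster and the third TUBA1C cluster have 35 reads in common, so they are not separate observations in the counts and medians here. The genes were also chosen with earlier results of these data known. The clusters were not all longer, since the first TUBA1C cluster spanned 36 nt against a primary median of 61 nt. Each had more reads than the primary median of 6, a level that 48.6% of primary clusters exceeded, and each scored above the primary median of 5, as did 36.7%. The number of reads lay between 12 and 47 (median 31), and the score between 11 and 19 (median 14). In the ACTG1 downstream cluster 42 reads were reached or passed by 111 primary clusters (3.11%), and in the smallest, the first of TUBA1C, 12 reads by 920 (25.8%). Every occupied start in the 9 clusters held exactly 1 read, so a score could not rise above 25 and scores near that ceiling say less than reads. Unshortened entries fall 1 nt short of their profile. A larger part was missing from the listed interval in 6 of the 9 clusters, against 42.2% of primary clusters. Shortening was greatest in the downstream actin clusters, with 146 nt missing in ACTB and 134 nt in ACTG1 beyond that 1 nt, followed by 93 nt in both the TUBA1A cluster and the third TUBA1C cluster.

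**Figure D4:**
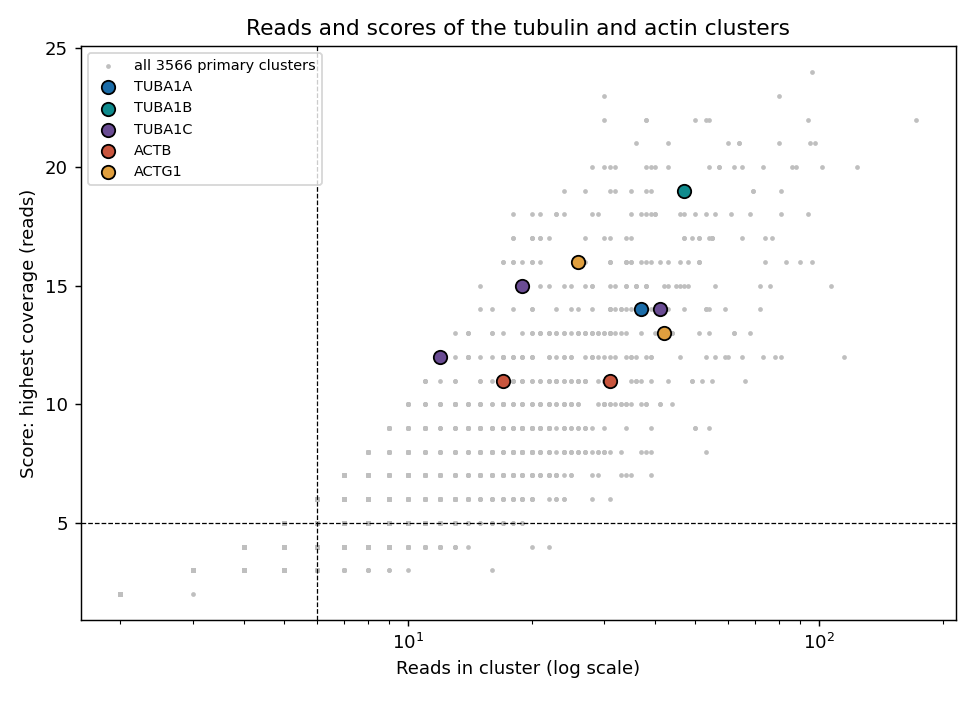
Score, the highest coverage in reads, against the number of reads per cluster (log scale) for the 3566 primary clusters (grey) and the 9 tubulin and actin clusters (coloured by gene); dashed lines are the primary medians of 6 reads and a score of 5. The coloured points lie above both medians, with TUBA1B at 47 reads and a score of 19.

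TUBB, a widely expressed β-tubulin gene, had 0 entries in its window at chr6:30687970-30693210 on the plus strand or within 1000 nt of it, on either strand. The nearest listed interval on its strand lay 182807 nt beyond the window. TUBB stands in the region of chromosome 6 for which hg19 also holds alternate copies, and these were searched too. They held 30 clusters, 25 of which had the profile of a cluster on chromosome 6 itself. As the TUBB window held 0 clusters, none of the 25 could match one there. The other 5 were on the minus strand. Since the minimum for listing is unknown, the 0 entries do not show that eIF3a made no contact with TUBB mRNA.

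In 3 of the genes the clusters lay toward the 5' end of the window. The listed intervals farthest downstream began 946 nt from the 5' edge in ACTB, 514 nt in ACTG1 and 129 nt in TUBA1B, in windows of 3471, 2911 and 3751 nt. The TUBA1A cluster lay past the middle of its window of 4701 nt. The window edges are rounded to 10 nt and do not mark alternative starts. They were not matched to transcription starts, so these are distances from the edge and not from a start. The opposite strand was empty around all 6 windows, the nearest listed interval there being 41033 nt from TUBA1C.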

How the data were processed

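Bowtie and hg19 are named for the eIF3a reads, without a version, per the submitters' processing notes. How clusters were called and filtered, how duplicates and reads with several matches were handled, and whether both replicates were pooled is not given in the sources used here. In the authors' deposited list each interval has a strand, a signal (the highest coverage of the cluster, in whole reads, without normalization) and a coverage profile; the units were read from the values. Coordinates are printed from 1.

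Profiles were split into 25-nt reads. All 3113 distinct profiles split exactly, and 0 did with reads of 24 or 26 nt. On simulated data 3604 of 3604 profiles and 50 of 50 planted shared stretches were recovered. The simulated profiles were built from 25-nt reads and the stretches were planted as exact copies, so this checks the code only. Stretches shared in part were not simulated. Entries of 1 profile at 1 place formed 3604 clusters, 3566 of them on primary chromosomes. Stretches of 40 nt with 10 to 30 starts were compared across all clusters in the direction of transcription. Intervals are exact Poisson or binomial intervals, at 95%, and neither kind allows for the limit of 1 read per start in these clusters.

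The 6 genes, their windows and the comparisons were chosen with earlier results of these data known; all 6 genes are named. No test between genes was made. A list of further cytoskeletal genes was not used here, since it needs an hg19 annotation, and protein sequences were not used here. Python 3.11.15, numpy 2.4.6, pandas 2.3.3, scipy 1.17.1 and matplotlib 3.10.9 were used. Alternatives for windows, merging, score, stretch length and shared reads were run.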

Additional observations from a re-analysis of the deposited data

How the results depend on the processing

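The 6 genes held 9 clusters, and 9 or 10 under 6 alternatives: entries as deposited (10), merging, a larger overlap, wider windows, a minimum score and either strand. The 272 reads became 237 with common reads counted once, which took TUBA1C from 72 to 37 reads where they were left to TUBA1A and, in an alternative chosen after seeing the data, TUBA1A from 37 to 2 where they were left to TUBA1C, both by construction. The reads stayed at 272 when only clusters inside their window at any placement were counted. The 2 clusters with a shared stretch stayed 2 with stretches of 30 or 60 nt, and fell to 0 when whole profiles had to match, since 8 reads differ between the loci. All 9 clusters also exceeded the median of 7 reads over the 3113 distinct profiles. Read lengths of 24 and 26 nt gave no value. No paired analysis was possible because replicates are not distinguished in the list. Depth is unknown, and with 12 to 47 reads per cluster, the approximate Poisson intervals of neighbouring genes in the order overlapped. Those of TUBA1C and ACTG1 did not overlap that of TUBA1A, which was not tested.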
